A study of Mus musculus with 55 samples.

Results

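The livers of 4 male mice were compared 170 days after the last dose of a repeated course of carbon tetrachloride (CCl4), 2 with deletion of Rnf43 and Znrf3 (R&Z del) and 2 without it (R&Z flox). These are 4 of the 55 libraries of the series, taken by their titles, and they belong to 11 libraries of livers after such a course of chronic damage (CD). The other 7 are R&Z del and R&Z flox livers at 4 days of recovery, 2 of each, and at 50 days of recovery, 2 R&Z del and 1 R&Z flox. All were C57BL/6 mice with floxed alleles of both genes. In R&Z del mice, the exons between the loxP sites were removed in adult life by AlbCre-ERT2, a tamoxifen-dependent Cre under the albumin promoter, so that hepatocytes were the cells targeted and the other liver cells kept both genes. CCl4 was then injected repeatedly over several weeks, and 170 days of recovery correspond to 7 months after deletion. The labels call the R&Z flox livers wild type and mark them as chronically damaged. The study's methods can be read as giving unrecombined littermates corn oil alone. Its sample list marks the same livers as tamoxifen treated, and it names both of them at 50 as well as at 170 days, where the labels give 170 days. The labels name adult liver as the tissue and do not say whether any lesion was taken or avoided.

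RNF43 and ZNRF3 are ubiquitin ligases of the cell surface that remove Frizzled receptors and so hold back WNT signalling, and both genes are themselves switched on by WNT. In the liver, WNT ligands of the central vein keep the hepatocytes around it in a pericentral state, with glutamine synthesis and much of drug metabolism, while hepatocytes near the portal vein carry urea synthesis and the breakdown of amino acids. CCl4 is activated by the pericentral enzyme CYP2E1, and its damage therefore falls first on pericentral hepatocytes. The comparison asked how a liver without both ligases differed from a control liver long after such damage had ended.

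Whole-liver RNA was read as counts per gene, with 29147686 and 30158289 counts in the R&Z del livers and 29469247 and 23285125 in the R&Z flox livers. Values are given as CPM, counts scaled to the TMM-normalised library size. The CD livers were all male by their genes (Xist at most 0.25 CPM, Ddx3y 18.4 to 42.4 CPM). In 7 further libraries, the title and the other labels conflicted, and these were not used in the main comparisons. The 7 were female by the same genes (Xist 18.5 to 148 CPM, Ddx3y at most 0.0873 CPM). Albumin took 2.24% and 1.78% of the counts in the R&Z del livers and 4.58% and 7.25% in the R&Z flox livers, so that the hepatocyte marker was abundant in every library. Pancreatic genes summed to between 62.5 and 161 CPM, with 10 to 12 of 16 at 0. No pair of CD libraries was identical, and their log2 values correlated with r from 0.838 to 0.98. In bulk liver, fewer cells of a type and less RNA per cell cannot be told apart.

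R&Z flox replicate 1 stood apart from the other livers, in genes of which Saa1, Saa2, Arntl, Dbp, Krt19 and Muc1 were chosen after their values had been seen. Saa1, an acute-phase protein made by hepatocytes during inflammation, was at 17010 and 56.7 CPM in the R&Z flox livers and at 59.6 and 62.7 CPM in the R&Z del livers. Saa2, its neighbour, was at 10580 and 15.8 CPM against 22.9 and 18.8 CPM. The 17 neutrophil genes summed to 3389 CPM in this library and to 27.99 CPM in R&Z flox replicate 2, with 21.1 and 34.8 CPM in the R&Z del livers, and all 17 had counts in it while 4 to 9 of them were at 0 in the other 3. S100a8, a calcium-binding protein of neutrophils, was at 55.8 and 2.04 CPM against 1.09 and 2.38 CPM. Metallothionein genes, which bind zinc and copper, summed to 2206 CPM against 186, 131 and 183 CPM, with Mt1 at 1768 and 19.2 CPM against 14.9 and 39.5 CPM and Mt2 at 350.4 and 1.42 CPM against 1.604 and 4.52 CPM. Arntl, a core gene of the circadian clock, was at 0.746 CPM there and between 12.9 and 17.3 CPM in the other 3, and the clock output gene Dbp was at 77.1 and 2.46 CPM against 3.39 and 13.6 CPM. The ductular keratin Krt19 and the mucin Muc1 divided the livers along another line, being high in R&Z flox replicate 1 and R&Z del replicate 2. Krt19 was at 4.702 and 71.8 CPM in the R&Z del livers and 104 and 1.36 CPM in the R&Z flox livers, and Muc1 at 1.495 and 65.7 against 67.7 and 0.367 CPM. Some results that rest on R&Z flox replicate 1 are given with and without it, and for others only the levels in each liver are shown.

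**Figure D1:**
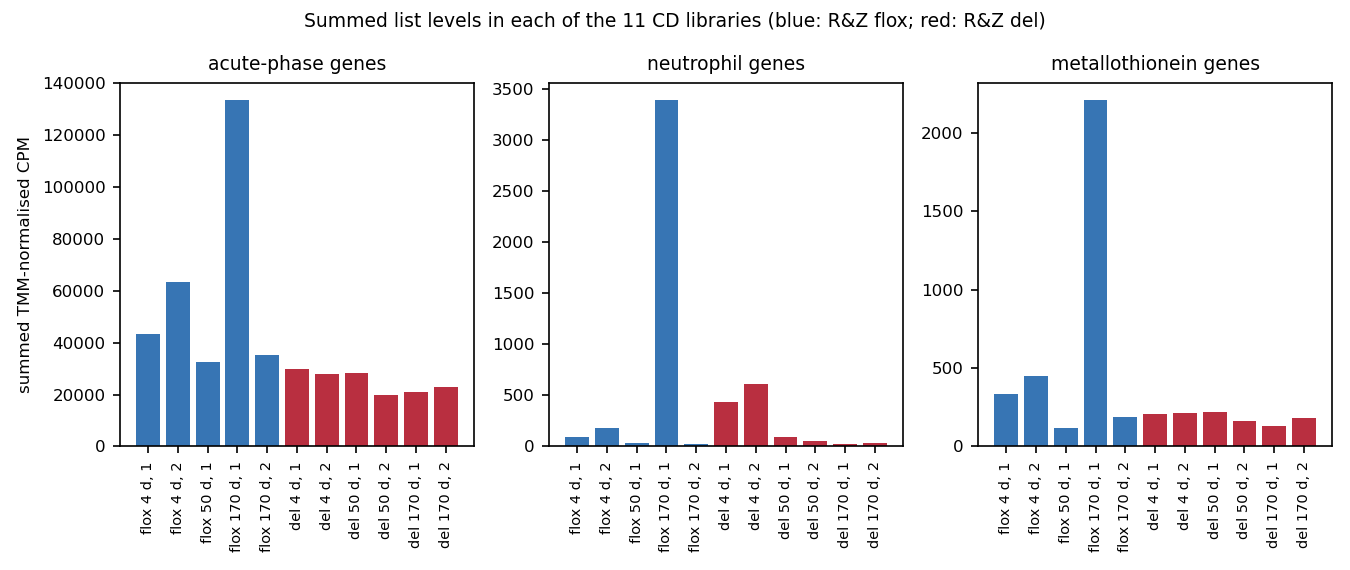
Summed CPM (TMM-normalised, linear axis from 0) of the 21 acute-phase, 17 neutrophil and 6 metallothionein genes in each of the 11 CD libraries, R&Z flox in blue and R&Z del in red, 1 bar a library. R&Z flox replicate 1 at 170 days reaches 133500, 3389 and 2206 CPM, above every other library in all 3 panels, while R&Z flox replicate 2 at 170 days has 35140, 27.99 and 186 CPM.

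The deleted genes themselves were not lower in the R&Z del livers. Znrf3 was at 15.4 and 13.8 CPM in the R&Z del livers and at 6.05 and 6.5 CPM in the R&Z flox livers, which was an increase (log2 FC 1.22, SE 0.22, FDR 0.0689, edgeR quasi-likelihood test with Benjamini-Hochberg adjustment). Rnf43 was at 24.2 and 19.4 CPM against 11.6 and 10.9 CPM and did not pass the test (log2 FC 0.95, SE 0.29, FDR 0.312). For both genes every R&Z del liver lay above every R&Z flox liver. The counts cover whole genes and do not show which exons were read, so that they do not check the deletion. The genotype of each library is therefore that of its label.

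Of 11935 genes tested, 74 were differentially expressed (DE), which required an FDR under 0.1 and a fold change above 2-fold in either direction, or 0.62% of the genes. In the R&Z del livers, 49 of them were higher (0.411% of the genes tested) and 25 were lower (0.209%). The median log2 FC of all genes tested was 0.00, and 1117 genes (9.36%) had an unadjusted p under 0.05. For each of the 74 DE genes, the groups did not overlap, as was the case for 37.7% of all genes tested. The number of DE genes depended on single livers. It was 42 without R&Z del replicate 1 and 6 without R&Z del replicate 2, 37 without R&Z flox replicate 1 and 396 without R&Z flox replicate 2, where the lone liver left in a group was assumed to vary as the other groups did. The 4 livers fitted without the other 7 gave 0 DE genes, with 908 at an unadjusted p under 0.05. Esr1, Gstm2, H2-Q1, Slc16a11, Tuba8 and Usp18 were DE whichever of the 4 livers was left out, 14 genes were DE in 3 of the 4 cases, and each of the 74 kept its direction wherever it could be tested.

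Among the genes with the largest increases was Ntrk2, the receptor for the neurotrophin BDNF, which lies at chr13:58806472-59133970 (mm10). It was at 17.1 and 35.95 CPM in the R&Z del livers and at 0.124 and 1.62 CPM in the R&Z flox livers (log2 FC 4.99, SE 0.74, FDR 0.0336). Its log2 FC was 4.02 without R&Z flox replicate 1 and 7.69 without R&Z flox replicate 2. Hamp2 (chr7:30922372-30924181), a paralogue of the gene for the iron hormone hepcidin, was at 177 and 168 CPM against 1.78 and 11.7 CPM (log2 FC 4.70, SE 0.66, FDR 0.0288). For Hamp2 the log2 FC was 3.88 without R&Z flox replicate 1 and 6.60 without R&Z flox replicate 2. For both genes the control livers also differed from each other, with R&Z flox replicate 1 the lower. The alpha-tubulin Tuba8 (chr6:121210734-121226098) was at 21.03 and 35.3 CPM against 2.53 and 0.786 CPM (log2 FC 4.05, SE 0.46, FDR 0.0146). Adgrf1 (chr17:43270283-43325876), an adhesion G protein-coupled receptor, was at 3.13 and 9.36 CPM against 0.497 and 0.786 CPM (log2 FC 3.29, SE 0.60, FDR 0.0752). Vldlr (chr19:27216480-27254231), which takes up triglyceride-rich lipoproteins, was at 6.31 and 10.8 CPM against 1.33 and 1.05 CPM (log2 FC 2.84, SE 0.44, FDR 0.0394). The levels of Adgrf1 and Vldlr were low in all 4 livers.

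Esr1 (chr10:4611989-5005633), the oestrogen receptor alpha, was among the most regular increases, at 122 and 88.4 CPM in the R&Z del livers and 15.1 and 19.2 CPM in the R&Z flox livers (log2 FC 2.62, SE 0.33, FDR 0.0213). The MHC class I gene H2-Q1 was at 62.8 and 56.8 CPM against 8.33 and 9.91 CPM (log2 FC 2.71, SE 0.22, FDR 0.00494), the lowest FDR of all genes tested. It belongs to a family of near-identical genes, among which reads may have been divided. Ifi44 and Gbp10, which are both induced by interferons, were at 8.79 and 8.34 CPM against 1.53 and 0.629 CPM and at 7.47 and 5.89 CPM against 0.911 and 0.996 CPM, with log2 FC of 2.95 (SE 0.43, FDR 0.0306) and 2.80 (SE 0.51, FDR 0.0761). Igh, the immunoglobulin heavy chain locus counted as 1 gene, was at 30.98 and 57.5 CPM against 8.62 and 5.61 CPM (log2 FC 2.63, SE 0.46, FDR 0.0648). Jchain, which joins secreted immunoglobulins, was at 7.84 and 32.8 CPM against 7.21 and 3.77 CPM and did not pass the test (log2 FC 1.88, SE 1.10, FDR 0.684), with R&Z del replicate 1 level with R&Z flox replicate 1. The remaining 2 of the 12 largest increases among the genes named by rule, Gstm3 and Apoa4, are described with the zonated genes. The R&Z del livers of each of the 12 lay above its R&Z flox livers because the naming rule required it.

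**Figure D2:**
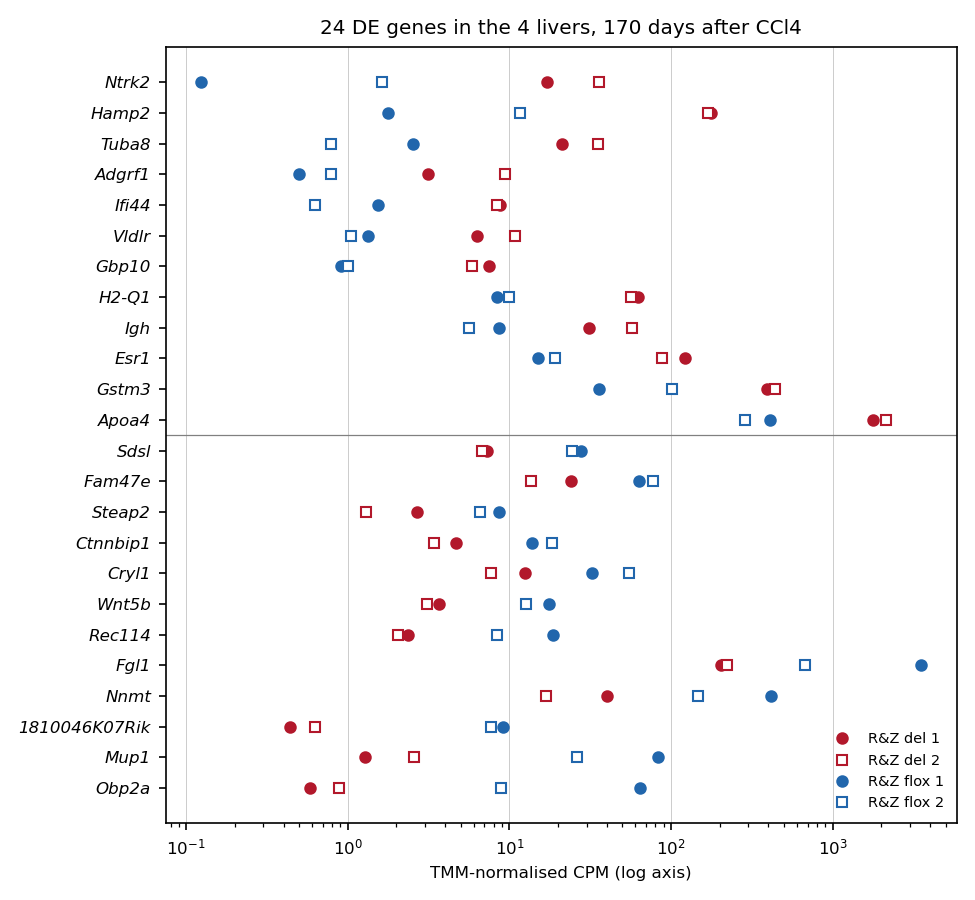
TMM-normalised CPM (log axis) of 24 DE genes in the 4 livers, the 12 with the largest and the 12 with the smallest log2 FC among those that met the naming rule, filled circles for replicate 1 and open squares for replicate 2, red for R&Z del and blue for R&Z flox. Red and blue do not overlap for any of the 24, as the rule required. Ntrk2 spans from 0.124 CPM in R&Z flox replicate 1 to 36.0 CPM in R&Z del replicate 2.

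Among the DE genes that were lower was Obp2a (chr2:25697577-25703326), which encodes an odorant-binding lipocalin. It was at 0.583 and 0.876 CPM in the R&Z del livers and at 64.05 and 8.91 CPM in the R&Z flox livers. Obp2a fell below the filter on low counts when either R&Z flox liver was left out. It thus passed the filter through the group where it was high, and its values are given with no test. Mup1 (chr4:60498012-60501960), a major urinary protein that is secreted mainly by male livers, was at 1.28 and 2.56 CPM against 83.3 and 26.2 CPM (log2 FC -4.83, SE 0.81, FDR 0.062). Reads of Mup1 may be shared with its many close copies. Nnmt (chr9:48538002-48607655), which methylates nicotinamide, was at 40.2 and 16.8 CPM against 415 and 146 CPM (log2 FC -3.30, SE 0.61, FDR 0.0805). Fgl1 (chr8:41191434-41217978), a fibrinogen-like protein secreted by hepatocytes and raised in the acute phase, was at 204 and 223 CPM against 3526 and 674 CPM (log2 FC -3.30, SE 0.64, FDR 0.0894). In these 4 genes R&Z flox replicate 1 was the highest of the 4 livers. Without that liver, the log2 FC of Fgl1 was -1.66, that of Nnmt -2.36 and that of Mup1 -3.77, and none of the 3 was DE.

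The other genes of the 12 largest decreases differed less between the control livers. The unnamed gene 1810046K07Rik (chr9:51289686-51328924) was at 0.437 and 0.631 CPM against 9.07 and 7.65 CPM. It fell below the filter on low counts when either R&Z flox liver was left out. It thus passed the filter through the group where it was high, and its values are given with no test. Ctnnbip1, whose product ICAT keeps beta-catenin from its TCF partners, was at 4.67 and 3.399 CPM against 13.8 and 18.4 CPM (log2 FC -2.00, SE 0.28, FDR 0.0288). The WNT ligand Wnt5b (chr6:119432531-119544824) was at 3.68 and 3.08 CPM against 17.5 and 12.7 CPM (log2 FC -2.16, SE 0.38, FDR 0.0648). Thus the genes of a WNT ligand and of an inhibitor of beta-catenin were both lower in the mutant livers. Rec114, known for its part in meiotic recombination, was at 2.37 and 2.03 CPM against 18.5 and 8.39 CPM (log2 FC -2.61, SE 0.43, FDR 0.0595). Cryl1, a lambda-crystallin related dehydrogenase of sugar acids, was at 12.5 and 7.74 CPM against 32.3 and 54.7 CPM (log2 FC -2.10, SE 0.41, FDR 0.0894). The metalloreductase Steap2 was at 2.697 and 1.296 CPM against 8.58 and 6.55 CPM (log2 FC -1.92, SE 0.37, FDR 0.0894), and Fam47e at 23.99 and 13.7 CPM against 63.4 and 77.2 CPM (log2 FC -1.90, SE 0.37, FDR 0.0894). For all of these, both control livers lay above both mutant livers, as the naming rule required.

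Further DE genes outside the naming rule were picked after their values had been seen. Fam83a, an oncogenic adaptor of growth factor signalling, was at 6.71 and 8.23 CPM in the R&Z del livers and had 3 counts and 1 count in the R&Z flox livers (0.124 and 0.0524 CPM), so that no fold is given. Sult1e1, which sulphates and inactivates oestrogens, was at 2.26 and 6.87 CPM against 0.249 and 0.157 CPM. It reached 1 CPM in the 6 R&Z del libraries only and so passed the filter through the group where it was high, and it could not be tested without either R&Z del liver at 170 days, so that its values are given with no test. Lepr, the leptin receptor, was at 2.59 and 1.89 CPM against 0.0829 and 0.262 CPM. It fell below the filter on low counts when either R&Z del liver at 170 days was left out. It too passed the filter through the group where it was high, and its values are given with no test. These 3 were near 0 in the controls. The serine protease Prss8 was at 22.8 and 34.4 CPM against 7.13 and 7.97 CPM (log2 FC 1.92, SE 0.25, FDR 0.0214), Pde4b, which degrades cyclic AMP, at 22.1 and 15.3 CPM against 3.56 and 7.23 CPM (log2 FC 1.80, SE 0.35, FDR 0.0902), and Cdkn2c, an inhibitor of the cyclin D kinases, at 10.6 and 12.2 CPM against 4.89 and 3.04 CPM (log2 FC 1.52, SE 0.25, FDR 0.0563). A pair of monocarboxylate transporter genes was also higher. Slc16a11 was at 38.5 and 36.5 CPM against 10.6 and 9.49 CPM (log2 FC 1.90, SE 0.21, FDR 0.0143), and Slc16a10, which carries aromatic amino acids, at 92.8 and 90.7 CPM against 43.9 and 46.02 CPM (log2 FC 1.03, SE 0.16, FDR 0.0394).

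A further 4 DE genes were also picked after their values had been seen. Of 2 nearby retinol dehydrogenase genes on chr10, Rdh9 was higher, at 179.9 and 278 CPM against 70.8 and 51.2 CPM (log2 FC 1.91, SE 0.27, FDR 0.0306), and Rdh16f2 was lower, at 67.2 and 65.3 CPM against 215 and 158 CPM (log2 FC -1.49, SE 0.26, FDR 0.0648). Each of these genes has close copies, so that reads may have been divided among them. Bdh2, a cytosolic dehydrogenase of hydroxybutyrate, was at 15.7 and 13.6 CPM against 44.7 and 59.6 CPM (log2 FC -1.83, SE 0.24, FDR 0.0225). Sfxn1, the mitochondrial serine transporter, was at 41.8 and 24.8 CPM against 86.4 and 122 CPM (log2 FC -1.65, SE 0.29, FDR 0.0689). For all 4 genes the groups did not overlap, as for each of the 74 DE genes and 37.7% of all genes tested.

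Of the WNT target genes, 3 of the 20 tested were DE. These were Lgr5, Tnfrsf19 and Znrf3, all higher in the mutant livers, where 0.411% of all genes tested were DE and higher. The list's median log2 FC was 0.96, against 0.00 over all genes tested, and 13 of the 20 had a positive log2 FC. Lgr5 (chr10:115450314-115587780), the R-spondin receptor, was at 9.44 and 12.2 CPM in the R&Z del livers and 2.11 and 2.83 CPM in the R&Z flox livers (log2 FC 2.13, SE 0.31, FDR 0.0306). Tnfrsf19 (chr14:60963834-61046855), a receptor of the tumour necrosis factor family, was at 15.2 and 17.9 CPM against 5.18 and 2.78 CPM (log2 FC 2.04, SE 0.29, FDR 0.0288). Their levels were low, and both mutant livers exceeded both controls by several-fold. Axin2, the negative feedback gene of the pathway, was picked after its value had been seen. It was at 5.58 and 7.36 CPM against 0.787 and 2.36 CPM and did not pass the test (log2 FC 2.06, SE 0.52, FDR 0.191), with the control livers apart from each other. Of the more abundant targets, Lect2, a secreted factor of hepatocytes, was at 452 and 515 CPM against 260 and 234 CPM (log2 FC 0.97, SE 0.21, FDR 0.123), Notum, which inactivates WNT ligands, at 46.99 and 55.95 CPM against 23.99 and 27.1 CPM (log2 FC 1.01, SE 0.21, FDR 0.107), and the transcription factor Prox1 at 21.1 and 16.8 CPM against 28.1 and 30.7 CPM (log2 FC -0.63, SE 0.32, FDR 0.61). Leaving out each of the 4 livers in turn kept the list's median between 0.86 and 0.92, while the number of DE members ranged from 0 without R&Z del replicate 2 to 5 without R&Z flox replicate 2.

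Pericentral hepatocyte genes formed one of the largest groups of increases. Of 26 tested, 7 were DE and all 7 were higher: Gstm3, Rhbg, Gstm2, Lgr5, Slc1a4, Oat and Gulo. Over all genes tested, 0.411% were DE and higher. The list's median log2 FC was 0.79, and for 21 of the 26 both R&Z del livers lay above both R&Z flox livers, as for 19.1% of all genes tested. Rhbg (chr3:88242874-88254739), an ammonium transporter, was at 54.6 and 76.9 CPM against 15.4 and 12.4 CPM (log2 FC 2.24, SE 0.38, FDR 0.062). Oat (chr7:132557475-132576398), the ornithine aminotransferase that feeds glutamate to glutamine synthesis, was at 1484 and 1816 CPM against 617 and 569 CPM (log2 FC 1.48, SE 0.23, FDR 0.0394). Slc1a4 (chr11:20302180-20332713), a transporter of neutral amino acids, was at 22.4 and 25.2 CPM against 7.38 and 8.34 CPM (log2 FC 1.60, SE 0.19, FDR 0.0162). Gulo (chr14:65986786-66009254), the last enzyme of vitamin C synthesis and a member added to the named ones after its value had been seen, was at 1152 and 1342 CPM against 535 and 484 CPM (log2 FC 1.29, SE 0.24, FDR 0.0761). For these 4 genes, the livers of one genotype were closer to each other than to those of the other.

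The mu-class glutathione transferases, which conjugate glutathione to reactive compounds, belong to the pericentral genes as well as to the NRF2 targets. Gstm2 (chr3:107981702-107986420) was at 332 and 462 CPM against 84.3 and 90.2 CPM (log2 FC 2.19, SE 0.21, FDR 0.00924), and Gstm3 (chr3:107963696-107969174) at 394 and 439.9 CPM against 35.9 and 102 CPM (log2 FC 2.60, SE 0.42, FDR 0.0509). They were the only 2 of 29 NRF2 genes tested that were DE, where 0.411% of all genes tested were DE and higher. The NRF2 list's median log2 FC was 0.17. The abundant Gstm1 was at 3879 and 3832 CPM against 1082 and 2515 CPM (log2 FC 1.10, SE 0.37, FDR 0.363). The Gstm genes are neighbours with similar sequences, so that reads may be divided among them. Glul, the glutamine synthetase found in the innermost pericentral layer, was at 446 and 748 CPM against 227 and 114 CPM (log2 FC 1.81, SE 0.49, FDR 0.232). Of the most abundant members, Cyp2e1, the enzyme that activates CCl4, was at 17510 and 16870 CPM against 9439 and 10240 CPM (log2 FC 0.81, SE 0.30, FDR 0.426), and Rgn, a calcium-binding lactonase, at 2042 and 2066 CPM against 1211 and 1620 CPM (log2 FC 0.54, SE 0.24, FDR 0.535). Every mutant liver was above every control liver for Glul, Cyp2e1 and Rgn, without passing the test. When a liver was left out, between 1 (without R&Z del replicate 2) and 11 (without R&Z flox replicate 2) of the pericentral genes were DE, all of them higher, and the list's median lay between 0.96 and 1.14.

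**Figure D3:**
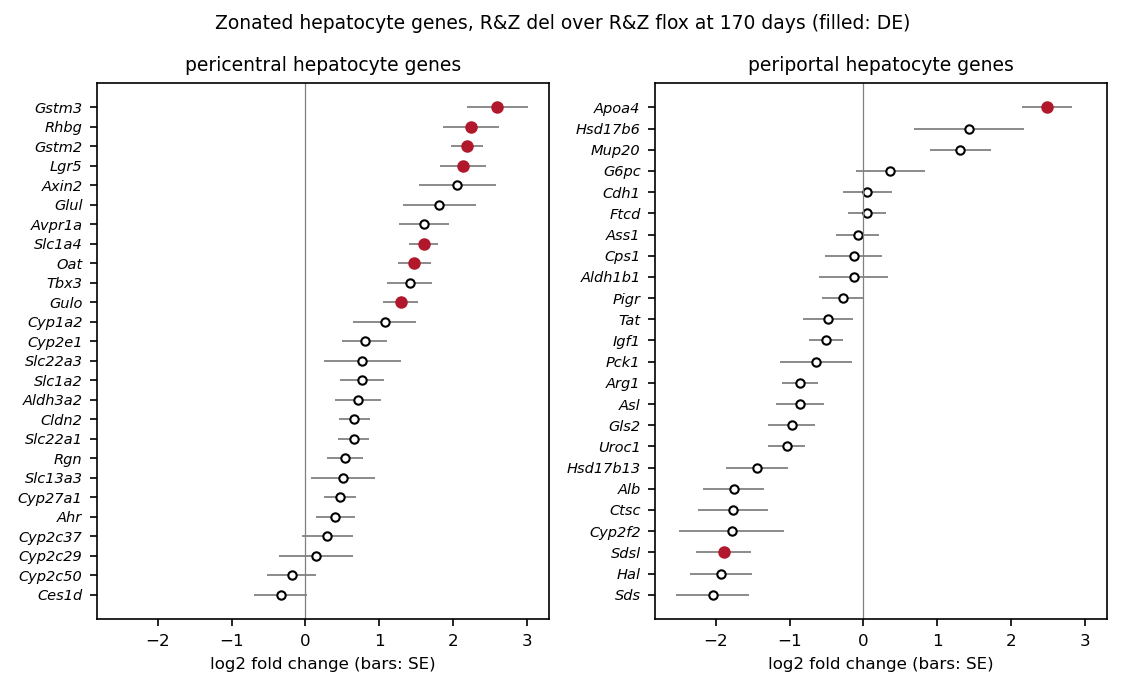
Log2 FC of mutant over control livers at 170 days, with its SE, for the 26 pericentral (left) and 24 periportal (right) genes tested, filled where DE and open otherwise. All but 2 pericentral genes lie above 0, with 7 DE, while 18 of the 24 periportal genes lie below 0, with 1 DE on each side.

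Periportal hepatocyte genes had a median log2 FC of -0.58 and 18 of 24 lay below 0, but only 2 were DE, 1 in each direction. Sdsl (chr5:120458193-120472825), a serine dehydratase-like enzyme, was lower, at 7.29 and 6.76 CPM against 27.7 and 24.4 CPM (log2 FC -1.89, SE 0.37, FDR 0.0897). Apoa4 (chr9:46240844-46243458), an apolipoprotein of triglyceride-rich particles, was higher, at 1773 and 2141 CPM against 411 and 287 CPM (log2 FC 2.49, SE 0.33, FDR 0.0243). The periportal list therefore held one of the largest increases. Hal, which opens histidine breakdown and was picked after its value had been seen, was at 105 and 90.05 CPM against 262 and 481 CPM (log2 FC -1.93, SE 0.42, FDR 0.128). Of the most abundant members, Alb was at 23800 and 18830 CPM against 55870 and 88440 CPM (log2 FC -1.76, SE 0.41, FDR 0.147), and Cyp2f2, a periportal cytochrome P450, at 796 and 371 CPM against 811 and 3202 CPM (log2 FC -1.78, SE 0.71, FDR 0.4604). The cytochrome was high in R&Z flox replicate 2 alone. Mup20, a male pheromone of the urinary protein family, was at 3872 and 4920 CPM against 1304 and 2238 CPM (log2 FC 1.31, SE 0.41, FDR 0.319), in the opposite direction to Mup1. With the urea cycle and amino acid enzymes taken as a list, Sdsl was the 1 DE gene of 34, and the median was -0.09.

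Interferon-stimulated genes formed the other large group of increases, with 7 of 29 tested DE, all higher. They were Ifi44, Oas1a, Oas1g, Usp18, Ifit1, Ifit3 and Xaf1. Over all genes tested, 0.411% were DE and higher. The list's median log2 FC was 0.68, and for 19 of the 29 both R&Z del livers lay above both R&Z flox livers, as for 19.1% of all genes. Usp18 (chr6:121245906-121270917), which removes the ubiquitin-like protein ISG15 and dampens interferon signalling, was at 31.1 and 30.7 CPM against 7.29 and 5.35 CPM (log2 FC 2.28, SE 0.23, FDR 0.00924). Ifit1 (chr19:34640889-34650009), which binds viral RNA, was at 16.5 and 14.1 CPM against 3.19 and 3.67 CPM (log2 FC 2.15, SE 0.27, FDR 0.0198), and its relative Ifit3 (chr19:34583119-34588982) at 11.99 and 10.97 CPM against 4.27 and 3.51 CPM (log2 FC 1.56, SE 0.26, FDR 0.062). Oas1a, a synthase of the messenger that activates RNase L, was at 11.1 and 9.14 CPM against 2.53 and 1.31 CPM (log2 FC 2.38, SE 0.31, FDR 0.0228). Oas1g, a close copy of it, was at 3.13 and 2.698 CPM against 0.829 and 0.262 CPM (log2 FC 2.37, SE 0.46, FDR 0.0895), and reads may be divided between the pair. Neither genotype overlapped the other for any of these 5 genes, as for every DE gene, and all 5 were expressed at low levels. Xaf1, which promotes apoptosis and was likewise added after its value had been seen, was at 10.6 and 13.1 CPM against 5.34 and 4.61 CPM (log2 FC 1.25, SE 0.24, FDR 0.0865). Outside the list, and picked after its value had been seen, Dhx58, a helicase of the same response, was DE as well, at 17.8 and 17.5 CPM against 7.71 and 8.75 CPM (log2 FC 1.10, SE 0.21, FDR 0.0806).

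More abundant interferon genes did not pass the test. Ifi27 was at 648 and 752 CPM against 247 and 164 CPM (log2 FC 1.77, SE 0.40, FDR 0.14), the viral tether Bst2 at 349 and 372 CPM against 308 and 216 CPM (log2 FC 0.46, SE 0.23, FDR 0.618), and the GTPase Iigp1 at 159 and 159.6 CPM against 118 and 121 CPM (log2 FC 0.41, SE 0.16, FDR 0.446). When a liver was left out, between 1 (without R&Z del replicate 2) and 6 of the interferon genes were DE, and the list's median lay between 0.66 and 1.21. Immune cell genes are given beside this result, and their part in it was not tested. Macrophage genes summed to 466 and 551 CPM in the R&Z del livers and 803 and 539 CPM in the R&Z flox livers, with 0 of 27 DE and a median log2 FC of -0.34. Lymphocyte genes summed to 42.8 and 92.0 CPM against 46.1 and 30.6 CPM, with 0 of 13 DE, a median of 0.44 and 5 to 8 of 30 at 0. MHC class II genes, which present antigen on macrophages, dendritic cells and B cells, all had a positive log2 FC. Their median was 0.72 over 10 genes tested and 0 were DE, and Cd74, the invariant chain, was at 227 and 254 CPM against 111 and 163 CPM (log2 FC 0.81, SE 0.53, FDR 0.7395).

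The promoters of the interferon genes are shown because many of them carry the element that interferon-activated transcription factors bind. The interferon-stimulated response element was searched on both strands as GAAA, any pair of bases and GAAA, from 250 bases before to 50 bases after each RefSeq start (GRCm38.p6). It was found in 15 of the 21 promoters given for the interferon list (71.4%), in 6 of the 32 given for DE genes that were higher (18.8%), in 0 of 18 for those that were lower, and in 3.99% of all 27025 promoters. Capitals mark the match below, read in the direction of the gene, and a match on the other strand reads TTTC, a pair of bases and TTTC.
Ifit1, chr19:34640775-34640804: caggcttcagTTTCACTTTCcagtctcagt
Ifit1, chr19:34640794-34640823: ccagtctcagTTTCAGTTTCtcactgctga
Ifit3, chr19:34583363-34583392: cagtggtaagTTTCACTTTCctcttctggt
Ifit3, chr19:34583397-34583426: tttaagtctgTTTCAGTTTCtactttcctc
Oas1a, chr5:120907523-120907552, minus strand: ttctcggGAAATGGAAACTGAAAatctact
Oas1g, chr5:120887609-120887638, minus strand: ttctcggGAAATGGAAACTGAAAatctact
Esr1, chr10:4611767-4611796: ttattgcaagGAAAGAGAAAgtgggttgga
Ifit1 and Ifit3 each have 2 separate matches, the windows of Oas1a and Oas1g carry the same letters with 2 overlapping matches, and Esr1, which is no member of the interferon list, has 1 match 212 bases before its start. Vldlr has a match as well, after its start. These are matches of letters and do not show that a factor bound there.

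For the WNT targets, the element of the TCF and LEF factors was searched as CTTTGATC on both strands in the same windows. It was present in 3 of the 10 promoters given for the list (Lect2, Sp5 and Tnfrsf19), in 1 of 32 for the DE genes that were higher, in 1 of 18 for those that were lower, and in 1.09% of all promoters. The DE genes with a match were Tnfrsf19 and Wnt5b, whose values moved in opposite directions. On the strand opposite to the gene, the match reads GATCAAAG.
Tnfrsf19, chr14:61038172-61038201, minus strand: cctgaatggggGATCAAAGtgacaaactag
Wnt5b, chr6:119449439-119449468, minus strand: agtaagtctctCTTTGATCtgctccctgtc
No match was found in the 18 promoters given for the pericentral list, which says only that these letters are not in those windows.

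Lipid genes differed by function. Of 28 genes of fatty acid synthesis and desaturation, 1 was DE and higher, as were 0.411% of all genes tested. The list's median log2 FC was 0.74, with 24 of 28 above 0. Elovl2 (chr13:41182382-41220403), the elongase of polyunsaturated fatty acids, was at 435 and 418 CPM against 130.4 and 201 CPM (log2 FC 1.37, SE 0.24, FDR 0.0656). Fads2, the desaturase of the same pathway, Acacb, the acetyl-CoA carboxylase that restrains fat oxidation, and the fatty acid synthase Fasn were picked after their values had been seen. Fads2 was at 985 and 818 CPM against 332 and 445 CPM (log2 FC 1.21, SE 0.25, FDR 0.114), and Acacb at 69.4 and 81.3 CPM against 19.02 and 35.9 CPM (log2 FC 1.46, SE 0.32, FDR 0.129). Neither passed the test, although their groups did not overlap. The groups did overlap for Fasn, with 1152 and 642 CPM against 379 and 768 CPM (log2 FC 0.65, SE 0.50, FDR 0.805). Scd1, the main desaturase of saturated fatty acids, was at 10320 and 8548 CPM against 1564 and 8259 CPM (log2 FC 0.94, SE 0.63, FDR 0.756), with R&Z flox replicate 1 alone at the low level. Without that liver, the list's median was 0.34 and 0 were DE, as was the case without either R&Z del liver, while 10 were DE without R&Z flox replicate 2.

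Of 24 genes of lipid uptake and droplets, 2 were DE and both were higher, against 0.411% of all genes tested, and the median was 0.19. Beside Vldlr, this was Lpl (chr8:68880555-68906932), the lipase that frees fatty acids from circulating lipoproteins, at 41.6 and 46.1 CPM against 9.82 and 8.34 CPM (log2 FC 2.27, SE 0.40, FDR 0.0689). Adult hepatocytes make little of it, and its level in both mutant livers was well above that in the controls. Fabp1, the abundant fatty acid carrier of hepatocytes, was at 12050 and 10690 CPM against 8956 and 9873 CPM (log2 FC 0.27, SE 0.36, FDR 0.912). None of 33 fatty acid oxidation, 24 cholesterol synthesis or 27 bile acid genes was DE, and their medians were -0.01, 0.28 and 0.07.

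Plasma protein genes of the hepatocyte mostly had a negative log2 FC, and for the acute-phase genes the control livers differed widely. All 21 acute-phase genes had a negative log2 FC, with a median of -1.85, and Fgl1 was the 1 DE gene. Hp, the haemoglobin scavenger haptoglobin, was at 3664 and 4125 CPM against 29020 and 5178 CPM (log2 FC -2.13, SE 0.67, FDR 0.319). Hpx, which binds free haem, was at 6189 and 6509 CPM against 34890 and 10530 CPM (log2 FC -1.84, SE 0.54, FDR 0.285), and Orm1, an acid glycoprotein picked after its value had been seen, at 631 and 685 CPM against 5125 and 1447 CPM (log2 FC -2.32, SE 0.51, FDR 0.128). In each of them the second control liver lay closer to the mutants than to R&Z flox replicate 1. Without R&Z flox replicate 1, the list's median was -0.62, 15 of 21 were below 0 and 0 were DE. Without R&Z flox replicate 2, 15 of the 21 were DE.

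Complement and coagulation genes had similar medians with and without that liver. Of 40 tested, 38 lay below 0, and for 30 of them both R&Z del livers were below both R&Z flox livers, as for 18.6% of all genes tested. The median log2 FC was -0.41, and it was -0.37 without R&Z flox replicate 1 and -0.43 without R&Z flox replicate 2, where 7 were DE. C8a (chr4:104815679-104876487), a part of the membrane attack complex, was the 1 DE gene, at 202 and 216 CPM against 728 and 539 CPM (log2 FC -1.60, SE 0.24, FDR 0.0346). C3, the central complement component, was at 3024 and 3343 CPM against 11210 and 5254 CPM (log2 FC -1.37, SE 0.41, FDR 0.285), and the fibrinogen chain Fgb at 4621 and 4839 CPM against 9551 and 6566 CPM (log2 FC -0.77, SE 0.29, FDR 0.434). Of the other plasma proteins, Trf, transferrin, was at 22180 and 19700 CPM against 25300 and 29910 CPM (log2 FC -0.40, SE 0.35, FDR 0.835), and Apoa1, of high-density lipoprotein, at 24100 and 29680 CPM against 17260 and 24820 CPM (log2 FC 0.35, SE 0.40, FDR 0.8898). The 20 genes of hepatocyte transcription factors and albumin had a median of -0.23, with 0 DE and 16 below 0.

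**Figure D4:**
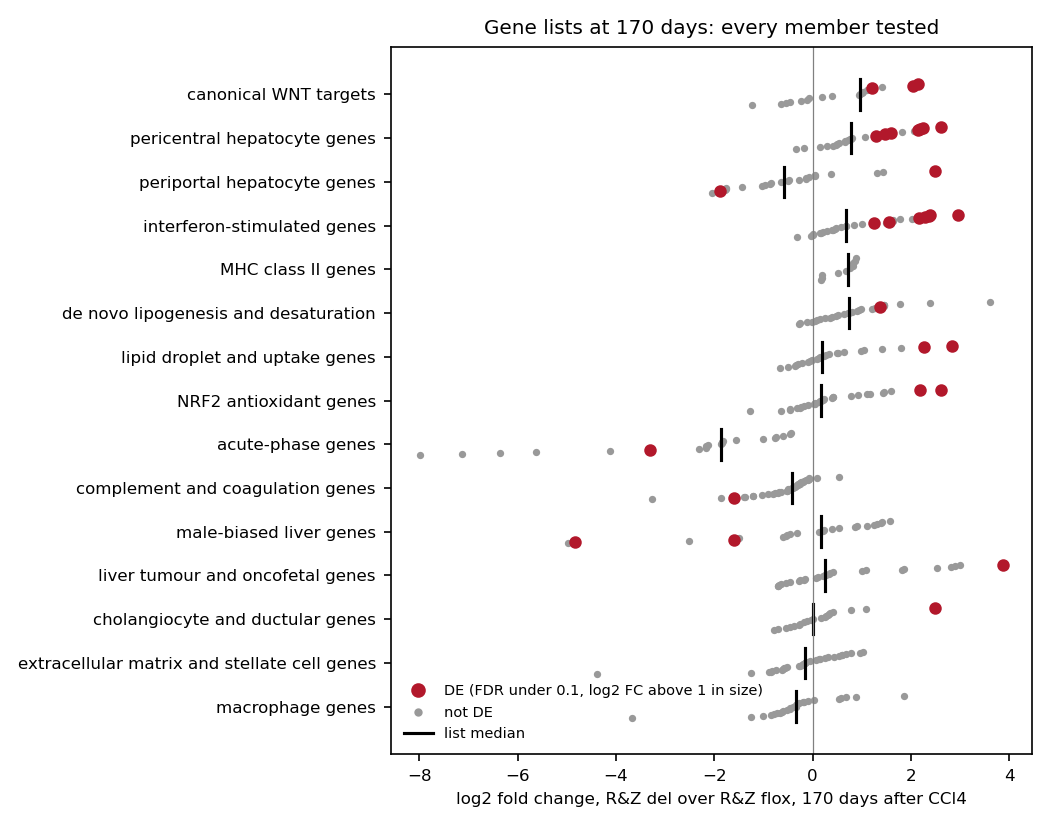
Log2 FC of mutant over control livers at 170 days for every gene tested in 15 of the 37 lists, 1 dot a gene, red where DE, with the list's median as a black bar. The medians of the WNT target (0.96), pericentral (0.79), lipogenesis (0.74), MHC class II (0.72) and interferon (0.68) lists lie to the right of 0, and those of the acute-phase (-1.85) and periportal (-0.58) lists to the left.

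The male-biased and female-biased liver genes, which follow the rhythm of growth hormone, had few DE members. Of 24 male-biased genes, 2 were DE and lower (Mup1 and C8a), as were 0.209% of all genes tested, and the list's median was 0.17. Of 16 female-biased genes, 0 were DE, with a median of -0.20. Serpina1e, an antitrypsin gene of male liver, was at 112 and 372 CPM against 13440 and 1698 CPM (log2 FC -4.97, SE 1.06, FDR 0.122), and it too was highest in R&Z flox replicate 1. Its close copies make the count uncertain. The 18 clock genes had a median of -0.58 with 0 DE, and it was -0.24 without R&Z flox replicate 1, the liver with the low Arntl level. The hour at which the livers were taken was not given in the sources used here.

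Tumour and ductular genes were tested as lists of their own. Of 27 liver tumour and oncofetal genes, 1 was DE and higher, as were 0.411% of all genes tested, and the median was 0.25. It was Spink1, a trypsin inhibitor raised in liver cancers, at 1.09 and 1.05 CPM in the R&Z del livers, with 2 counts and 1 count in the R&Z flox livers (0.0829 and 0.0524 CPM), so that no fold is given. The osteopontin gene Spp1 was at 240.3 and 214 CPM against 163 and 51.5 CPM (log2 FC 1.08, SE 0.52, FDR 0.5901). Of 21 cholangiocyte and ductular genes, 1 was DE, and the median was 0.01. This was the keratin Krt23, at 3.39 and 1.86 CPM against 0.414 and 0.524 CPM (log2 FC 2.48, SE 0.49, FDR 0.0897), a low level in all 4 livers. The summed level of this list was 1342 and 1715 CPM in the R&Z del livers and 1545 and 993 CPM in the R&Z flox livers, highest in R&Z del replicate 2 and R&Z flox replicate 1, as were Krt19 and Muc1.

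Cell division and scar genes gave no DE members. Of 23 genes of DNA replication, 12 of mitosis and 18 of the p53 response, 0 were DE, with medians of 0.07, 0.59 and 0.26. Mitosis genes summed to 25.3 and 28.1 CPM in the R&Z del livers and 24.9 and 12.6 CPM in the R&Z flox livers. Of 33 extracellular matrix and stellate cell genes, 0 were DE, with a median of -0.16, and they summed to 1064 and 990.0 CPM against 1643 and 1271 CPM. Fn1, the fibronectin of matrix and plasma, was at 398 and 507 CPM against 997 and 627 CPM (log2 FC -0.84, SE 0.25, FDR 0.288). Endothelial genes had 0 of 25 DE and a median of 0.19. The unfolded protein list had 0 of 25 DE and a median of -0.49, with Pdia3, a disulphide isomerase, at 567 and 407 CPM against 494 and 957 CPM (log2 FC -0.57, SE 0.33, FDR 0.683). Glucose metabolism had 0 of 34 DE and a median of 0.06. In all, 685 genes of the 37 lists were tested, 26 of them were DE, and 24 lists had no DE gene. Blood, pancreas, adipose and muscle, immediate early, metallothionein, neutrophil, sex chromosome and nuclear RNA lists are among these 24.

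The genotype effect was then compared with that at 4 days of recovery, which rests on 4 other livers. It differed in 851 of 11935 genes (7.13%), with 394 higher (3.3%) and 457 lower (3.83%) at 170 days than at 4 days, by the interaction in the same model. Between 110 and 1850 genes passed when a liver was left out, 110 without R&Z flox replicate 1 at 4 days and 1850 without R&Z flox replicate 2 at 170 days. Hamp2 had opposite effects at the 2 times. At 4 days it was at 23.5 and 27.7 CPM in the R&Z del livers and 109 and 97.9 CPM in the R&Z flox livers, and the effect at 170 days was higher by a log2 of 6.71, SE 0.87, FDR 0.0124. Apoa4 likewise was at 625 and 646 CPM against 3212 and 2463 CPM at 4 days (difference of the effects 4.65, SE 0.47, FDR 0.00551). Both genes were lower than control soon after damage and higher than control late.

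Beside Hamp2, the 4 largest upward differences among the named genes were those of Hsd3b5, Elovl3, Pnpla5 and Cyp4a12a. Cyp4a12a, a male-specific hydroxylase of fatty acids, was at 9.504 and 2.69 CPM against 240.1 and 178 CPM at 4 days and at 256 and 363 CPM against 80.5 and 156 CPM at 170 days (difference 6.497, SE 0.77, FDR 0.0109). Hsd3b5, a male steroid reductase, was at 0.494 and 0.165 CPM against 41.7 and 4.66 CPM and later at 70.97 and 207 CPM against 15 and 114 CPM (difference 7.28, SE 1.85, FDR 0.0672). Elovl3, an elongase, was at 1.34 and 0.683 CPM against 131 and 10.3 CPM and later at 664 and 595 CPM against 16.6 and 658 CPM (difference 7.04, SE 2.09, FDR 0.0985), and the lipase Pnpla5 at 2.59 and 1.79 CPM against 20.3 and 15.9 CPM and later at 9.81 and 6.45 CPM against 0.373 and 0.996 CPM (difference 6.65, SE 1.11, FDR 0.0219). Of these 4, none was DE at 170 days, and the log2 FC of Elovl3 at that time was -0.068 without R&Z flox replicate 1. Over all genes tested, the effect was higher at 170 days in 3.3% and lower in 3.83%. Of the 24 male-biased genes, the effect was higher at 170 days in 11 and lower in 0. Their median log2 FC was -2.08 at 4 days and 0.17 at 170 days. Of the 28 lipogenesis genes, 10 had a higher effect at 170 days and 1 a lower one, and the median was -0.83 at 4 days. In this list Elovl2, which was at 127 and 109 CPM against 484 and 546 CPM at 4 days, differed by 3.49, SE 0.34, FDR 0.00551. Fads2 differed by 2.61, SE 0.36, FDR 0.0148, and Acacb by 3.47, SE 0.46, FDR 0.01398. Mup20 of the urinary proteins differed by 3.41, SE 0.59, FDR 0.02403, and the periportal Cyp2f2, at 13.1 and 24.8 CPM against 3213 and 2588 CPM at 4 days, by 5.47, SE 1.04, FDR 0.0307.

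The 5 largest downward differences among the named genes were those of Mmp7, Prtn3, Lcn2, Slc34a2 and Pcp4l1. Mmp7, a matrix metalloproteinase of bile duct cells, was at 133 and 228 CPM in the R&Z del livers and 0.143 and 0 CPM in the R&Z flox livers at 4 days and at 6.34 and 3.399 CPM against 8.203 and 0.2097 CPM at 170 days (difference -11.05, SE 1.80, FDR 0.0208). The phosphate transporter Slc34a2 was at 40.6 and 30.4 CPM against 1.39 and 0.5296 CPM and later at 1.71 and 1.47 CPM against 26.2 and 2.78 CPM (difference -8.39, SE 1.29, FDR 0.0196), and Pcp4l1 at 61.6 and 59.03 CPM against 0.785 and 0.883 CPM and later at 12.03 and 12.2 CPM against 79.8 and 7.08 CPM (difference -8.01, SE 1.23, FDR 0.0196). In the mutants all 3 were lower at 170 days than at 4 days. Prtn3, a protease of neutrophil granules, had 18.02 and 15.04 CPM against 4.96 and 15.3 CPM at 4 days (difference -10.02, SE 2.43, FDR 0.0596), and Lcn2, a siderophore-binding protein of neutrophils and inflamed epithelium, 396 and 526 CPM against 28.8 and 91.6 CPM (difference -9.29, SE 2.34, FDR 0.0656). At 170 days these 2 genes stood at 548 and 3.04 CPM and 3170 and 13.1 CPM in the R&Z flox livers, the first value being replicate 1. Without that library, the log2 FC at 170 days was 0.57 for Lcn2, -2.82 for Prtn3, -0.81 for Slc34a2 and 0.77 for Pcp4l1, against -6.35, -9.32, -3.19 and -1.84 with it. Of 21 ductular genes, the effect was lower at 170 days in 10 and higher in 0, and of 27 tumour genes it was lower in 9 and higher in 0. Over all genes tested, it was lower in 3.83% and higher in 3.3%. The ductular and tumour medians at 4 days were 4.32 and 2.55. Spp1 was at 2615 and 4194 CPM against 74.8 and 146 CPM at 4 days (difference -3.87, SE 0.76, FDR 0.0317), Krt23 differed by -2.87, SE 0.68, FDR 0.0572, and the chemokine Cxcl1 by -4.65, SE 1.31, FDR 0.0863. At 170 days Cxcl1 was at 2.114 and 5.431 CPM in the R&Z del livers and 122.6 and 8.23 CPM in the R&Z flox livers, highest in R&Z flox replicate 1.

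Some genes of the late increase had smaller effects at 4 days. Esr1 was at 375 and 206 CPM against 159 and 208 CPM at 4 days (difference 1.95, SE 0.45, FDR 0.0501), and all 4 livers were then above every liver at 170 days. Cdkn2c differed by 1.77, SE 0.34, FDR 0.0309 and Prss8 by 1.29, SE 0.34, FDR 0.0747. Lgr5 differed by 1.88, SE 0.42, FDR 0.0479, Slc16a11 by 1.70, SE 0.29, FDR 0.0233 and Adgrf1 by 3.28, SE 0.78, FDR 0.0566. Oat was the reverse, with a larger effect at 4 days, when it was at 146 and 109 CPM against 18.2 and 20.3 CPM (difference -1.25, SE 0.32, FDR 0.0679). Of the DE genes that were lower at 170 days, Wnt5b differed by -2.97, SE 0.52, FDR 0.0253, and Rec114 by -3.85, SE 0.61, FDR 0.0196. Of the interferon genes, the effect was lower at 170 days in 6 of 29 and higher in 0, against 3.83% and 3.3% of all genes tested. The interferon list's median log2 FC was 2.04 at 4 days.

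Taken over the DE genes of 170 days, the direction at the other times was mostly shared. Of the 49 that were higher, 43 had a positive log2 FC at 4 days and 47 at 50 days, and 29 and 22 of them were DE and higher at those times, as were 10.2% and 2.53% of all genes. Of the 25 that were lower, 18 had a negative log2 FC at 4 days and 21 at 50 days, with 11 and 9 DE and lower, as were 5.24% and 2.89% of all genes. Against the direction, 4 of the 49 were DE and lower at 4 days, and 3 of the 25 were DE and higher. Ntrk2 was at 17.7 and 16.7 CPM in the R&Z del livers at 50 days, with 0.266 CPM in the single control, and its log2 FC was 3.54 at 4 days and 5.99 at 50 days. Tuba8 had log2 FC of 3.55 and 2.12, and Vldlr of 4.64 and 2.67. For these 3 genes every R&Z del liver was above every R&Z flox liver at all 3 times. Mup1 had log2 FC of -2.06 and -4.22, but at 4 days its levels were low and overlapped, at 0.262 and 0.118 CPM against 1.46 and 0.106 CPM. The effect at 170 days differed from that at 4 days by the interaction in 13 of the 49 upwards and 2 downwards, and in 8 of the 25 downwards. As the 74 genes were chosen for their size at 170 days, these differences are not independent of the choice, and with a single control at 50 days the values at that time are set side by side only.

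**Figure D5:**
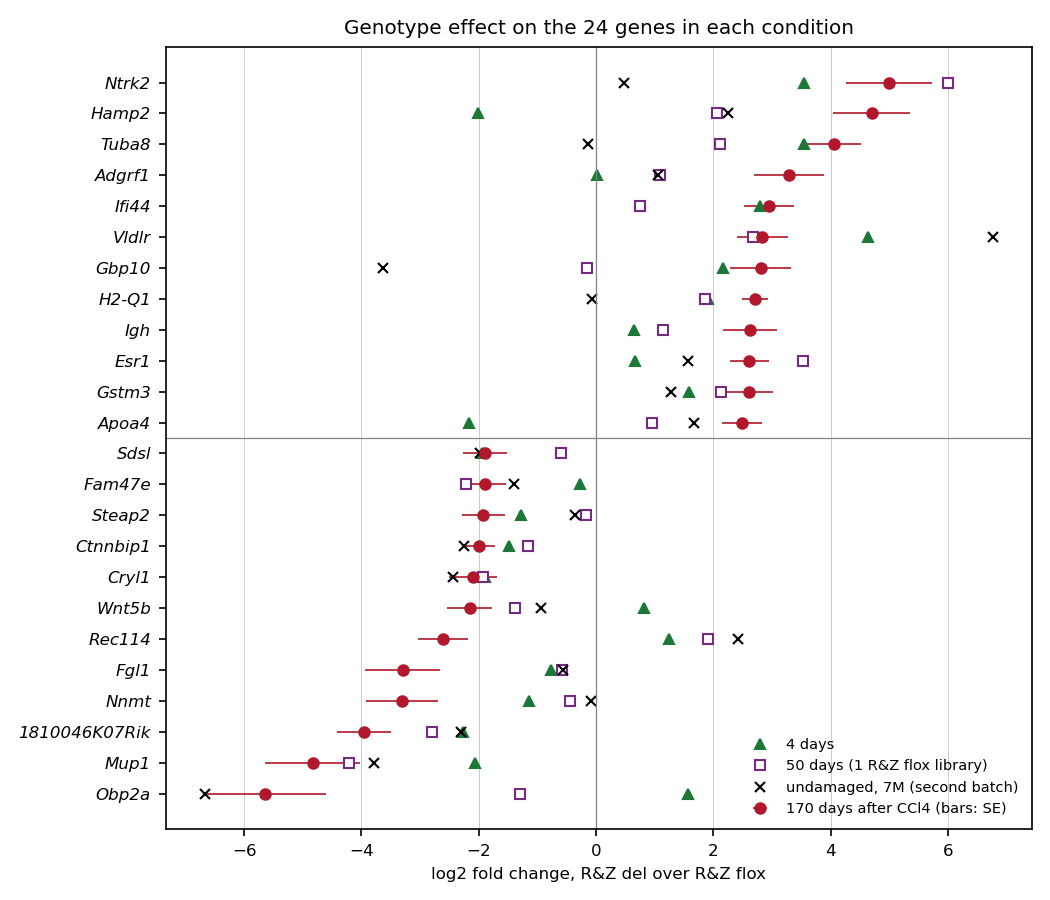
Log2 FC of mutant over control livers for 24 DE genes at 170 days after CCl4 (red circles, bars are SE), at 4 days (green triangles), at 50 days (open squares, 1 R&Z flox liver) and in undamaged liver at 7 months of the second batch (crosses, not drawn for 2 genes with too few counts or no value). Tuba8 keeps its side at 4 and 50 days (3.55 and 2.12), while Hamp2 and Apoa4 lie below 0 at 4 days (-2.02 and -2.16) and above 0 at 170 days.

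Undamaged livers of the same time after deletion gave the second reference, 3 R&Z del and 3 R&Z flox males of the second sequencing batch, so that each genotype effect lay within 1 batch. The genotype effect differed in 8 of 11774 genes (0.0679%), with 6 higher (0.051%) and 2 lower (0.017%), and 818 (6.95%) had an unadjusted p under 0.05. In all 8 an undamaged group had at most 1 count in every library, 6 of them in R&Z del and 2 in R&Z flox, so that no fold can be given. The 8 were named after their values had been seen: Capn5, Cfd, Ctse, Gbp3, Nipal1, Rpusd1, Syne4 and Thnsl1. Cfd, the complement factor adipsin, was at 9.93 and 4.04 CPM in the R&Z del livers and 69.0 and 65.0 CPM in the R&Z flox livers after damage, and between 3.11 and 6.26 CPM in the undamaged R&Z del livers, with 0 counts in the 3 undamaged R&Z flox livers. The spread of the 17 libraries was larger than that of the 11 CD libraries, with a common biological coefficient of variation of 0.594 against 0.246, and in that model 0 genes were DE between the genotypes at 170 days, with 245 (2.08%) at an unadjusted p under 0.05. Without R&Z del replicate 1, R&Z del replicate 2 or R&Z flox replicate 1, 0 genes passed, and without R&Z flox replicate 2 it was 29. DESeq2's Wald test gave 163 genes on these libraries and edgeR's likelihood ratio test 183.

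In undamaged liver, 10 of 20 WNT target, 20 of 26 pericentral and 12 of 29 interferon genes had a positive log2 FC, against 13 of 20, 24 of 26 and 27 of 29 at 170 days. The difference between the lists' counts was not tested. The undamaged libraries had a count in 13412 to 15717 genes each and the CD libraries in 18106 to 22604. The signs of genes at low levels in undamaged liver are therefore uncertain. Among the interferon genes DE at 170 days, the undamaged log2 FC ranged from -5.52 (SE 1.81) for Ifi44 to 1.70 (SE 0.74) for Usp18. Ifi44 had at most 3 counts in every undamaged library of a genotype. In the first batch, damaged R&Z del livers differed from undamaged ones in these genes by a log2 of -0.52 (Usp18) to 0.61 (Oas1a). Lgr5 had a log2 FC of 3.26 in undamaged liver and 2.13 at 170 days, Tnfrsf19 of 3.93 and 2.04, Gulo of 1.64 and 1.29, and Glul of 3.22 and 1.81. Oat had -0.13 in undamaged liver and 1.48 at 170 days, and Prox1 -0.44 and -0.63. Of the 49 genes that were higher at 170 days, 33 of the 47 with a value had a positive log2 FC in undamaged liver and 14 were DE and higher there, as were 1.82% of all genes. Of the 25 that were lower, 19 of 23 had a negative one and 3 were DE and lower, as were 1.27% of all genes. None of the 70 genes with a value passed the test of the difference.

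Damaged R&Z del livers were last set against undamaged R&Z del livers, with 2 livers of the same batch on each side, both 7 months after deletion. Of 12229 genes, 0 were DE by the quasi-likelihood test, and 823 (6.73%) had an unadjusted p under 0.05, while DESeq2's Wald test gave 88 and edgeR's likelihood ratio test 62. The lowest FDR was 0.451. The genes below were chosen after their values had been seen, and their CPM were scaled over 16 libraries of the first batch. Cd9, a tetraspanin of the cell membrane, was at 40.5 and 38.7 CPM after damage and 15.9 and 16.4 CPM without (log2 difference 1.29, SE 0.22). Nedd4l, a ubiquitin ligase of ion channels, was at 29.5 and 24.3 CPM against 11.7 and 9.90 CPM (1.32, SE 0.24). The clock-controlled repressor Ciart was at 0.246 and 0.135 CPM against 14.97 and 5.69 CPM (-5.73, SE 1.10). Slc1a4, which was also higher than in the controls, was at 21.6 and 24.3 CPM against 11.65 and 10.03 CPM (1.08, SE 0.21). None of these 4 genes passed the test.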

How the data were processed

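The deposited values are raw counts of reads per gene. Per the methods and the submitters' notes, the authors made Smart-Seq2 libraries of whole liver, sequenced single reads, trimmed them, aligned them to mm10 with STAR 2.5.0a and counted them with featureCounts (1.5.0-p1 and 1.5.0-p3 in the notes, another version in the methods) without regard to strand, so that overlapping and antisense genes cannot be told apart.

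Groups came from the titles, and 7 libraries whose labels conflict were left out. The CD libraries hold 23277769 to 30158289 counts each. Each library is a biological replicate per the study, and p-values measure only the spread between these libraries. In R 4.3.3, edgeR 4.0.16 (TMM, quasi-likelihood test) was fitted to all 11 CD libraries, with 1 mean per genotype and time, on genes with a CPM of at least 1 in at least 6 libraries. DE means a Benjamini-Hochberg adjusted p (FDR) under 0.1 and a log2 FC above 1 in size. The undamaged comparisons were fitted to 17 libraries of both batches and 16 of the first. The fit was tested on simulated data.

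The named genes were Rnf43 and Znrf3, the 12 largest and 12 smallest log2 FC among DE genes above 5 CPM on average in either group, with a count above 3 in the lower group and no overlap, up to 6 DE and 3 abundant members of each list that were not DE, and 5 of each direction for the other comparisons. Members and lists were chosen with earlier results of these data known. Alternatives were DESeq2 1.42.0 (size factors, Wald test), the likelihood ratio test, no filter, the 4 libraries alone, a replicate block, each library left out, and adding libraries whose labels conflict. The main fit did not treat replicate numbers as pairs of livers.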

Additional observations from a re-analysis of the deposited data

Results flagged for a closer look

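The following genotype effects differed between 170 and 4 days of recovery by the interaction test (edgeR quasi-likelihood, FDR under 0.1), and each value is the log2 effect at 170 days minus that at 4 days. The difference was 7.28 for Hsd3b5, 7.04 for Elovl3, 6.65 for Pnpla5, 6.497 for Cyp4a12a, 4.65 for Apoa4, 3.49 for Elovl2, 3.47 for Acacb, 3.41 for Mup20 and 2.61 for Fads2. It was 6.71 for Hamp2, 5.47 for Cyp2f2, 4.78 for Lepr, 3.28 for Adgrf1, 1.95 for Esr1, 1.88 for Lgr5, 1.77 for Cdkn2c, 1.70 for Slc16a11 and 1.29 for Prss8. Below 0 were Oat at -1.25, Krt23 at -2.87, Wnt5b at -2.97, Rec114 at -3.85, Spp1 at -3.87, Cxcl1 at -4.65, Obp2a at -7.20, Pcp4l1 at -8.01, Slc34a2 at -8.39, Lcn2 at -9.29, Prtn3 at -10.02 and Mmp7 at -11.05. Of these, Cxcl1, Mmp7, Obp2a, Pcp4l1, Slc34a2, Lcn2, Prtn3, Rec114 and Wnt5b were highest in R&Z flox replicate 1 at 170 days. Lepr and Obp2a passed the filter on low counts through the group where they were high, and no result is drawn from their values.

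Between 170 days after CCl4 and undamaged liver at 7 months, the genotype effect differed in 8 genes, each of which had at most 1 count in every library of an undamaged group.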

How the results depend on the processing

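The number of DE genes between R&Z del and R&Z flox at 170 days was 74. It was 74 with DESeq2 size factors, 666 without the filter on low counts, 315 with DESeq2's Wald test, 298 with edgeR's likelihood ratio test, 0 when the 4 libraries were fitted alone, 6 to 396 with a library left out, and 93 with the 50-day control joined. Libraries of conflicting labels were also added, which were female by their genes while the CD livers were male. With one of them in R&Z del the number was 2, and with a different one in R&Z flox it was 21. In the first case 0 of the WNT target, pericentral and interferon genes were DE, with medians of 0.78, 0.65 and 0.75, and in the second 1, 4 and 0, with medians of 0.47, 0.79 and 0.31. The share of DE genes that were higher was 66.2%, but 49.5% without the filter, 50.2% with the Wald test, 50.3% with the likelihood ratio test and 46.5% without R&Z flox replicate 2. The 851 differences from 4 days became 2357, 1376 and 1385 without the filter, with the Wald test and with the likelihood ratio test, and 110 to 1850 with a library left out. The 8 differences from undamaged liver became 4 with DESeq2 size factors, 140, 163 and 183 under the same 3 alternatives, 0 with undamaged livers of the first batch, and 0 to 29 with a library left out. The 0 DE genes between damaged and undamaged R&Z del became 501, 88 and 62, and stayed at 0 with each of the 4 R&Z del libraries of the contrast left out. The cause of these shifts was not tested.

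The deviations of same-numbered livers correlated with r of -0.343 at 170 days and 0.333 at 4 days. With 2 livers a group, these values cannot decide whether the replicate numbers pair the livers. A replicate block gave 60 DE genes at 170 days and 699 differences from 4 days, and a crossed replicate block, chosen after seeing the data, 60. Leaving out single livers for the list counts was also chosen after seeing the data.

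The log2 FC at 170 days changed sign for Mmp7 (0.18) to -0.34 without R&Z del replicate 1, -0.75 without R&Z flox replicate 2 and -0.40 with the conflicting library in R&Z del. With a library left out, its range was -0.75 to 4.503 for Mmp7, -7.35 to 0.57 for Lcn2, -6.02 to 0.50 for Mt1, -6.83 to 1.11 for Mt2, -0.068 to 5.25 for Elovl3, -2.72 to 0.77 for Pcp4l1, -8.12 to 0.11 for Saa1 and -8.99 to 0.40 for Saa2, and for all but Mmp7 the change of sign came without R&Z flox replicate 1. Hamp2 went to -0.077 with the other conflicting library, which was added to R&Z flox. Of 1434 values of named genes under 14 alternatives, 1017 kept direction and side of the threshold, 293 lost the call, 113 gained it and 11 changed sign. Genes with a CPM of at least 1 in fewer than 6 libraries were not tested at this depth.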
